A study of Homo sapiens with 2 samples.

Results

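Phospholipase A2 genes were compared between HL60, a human acute myeloid leukaemia line, and R-HL60, its cytarabine-resistant derivative. Of the 10 genes sought by name (PLA2G3, PLA2G2A, PLA2G2D, PLA2G12A, PLA2G4A, PLA2G4B, PLA2G4C, PLA2G6, PLA2G7 and PLA2G15), 9 had rows, with 12 probes in all, among 43311 genes and transcripts on the array. No row was named PLA2G4B alone. The genes were chosen with their differences on these arrays known, above all that of PLA2G3, so the differences below are a description and carry no test. HL60 was the untreated parent. R-HL60 was raised from HL60 under steadily rising doses of cytarabine, a deoxycytidine analogue that blocks DNA synthesis. Both lines were kept in the same serum-supplemented medium, and the labels do not say whether R-HL60 is a single clone or whether drug was present at harvest. Each line was read on 1 Agilent one-colour array, so there were no replicates, and a difference between lines cannot be told apart from a difference between arrays.

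Phospholipases A2 cut the fatty acid from the middle position of a membrane phospholipid and leave a lysophospholipid. The freed fatty acid can be arachidonic acid, which the lipoxygenase route turns into leukotrienes and the cyclooxygenase route into prostaglandins and thromboxane. Neutrophils and monocytes, the cells towards which HL60 can differentiate, are known for making leukotriene B4 in this way. The family falls into small secreted calcium-dependent enzymes, cytosolic calcium-dependent enzymes, calcium-independent enzymes, and hydrolases that act on platelet-activating factor or in the lysosome.

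PLA2G3 was the member that differed most between the lines: its signal was 3.62-fold lower in the resistant line. No other measured member was known to be past 2-fold. Values are linear array signals, and differences are log2 signal in R-HL60 minus HL60 after each array was set relative to its own 75th percentile (292 in HL60 and 294 in R-HL60). A signal counted as measured when it reached the array's median, called the floor here (30.7 in HL60 and 32.8 in R-HL60), because no detection flags were at hand. Of the 9 members found, 7 lay above the floor on both arrays, 1 on the resistant array only and 1 on neither. Of the 8 measured on at least 1 array, 1 was at least 2-fold lower and 0 were known to be at least 2-fold higher. Over all genes the background was 0.297% at least 2-fold lower and 0.786% at least 2-fold higher, of 23545 above the floor on at least 1 array. As PLA2G3 was picked for its difference, nothing can be read from that comparison. The count of members was the same at 1.5-fold, where the background was 1.38% lower and 3.53% higher, and at 3-fold, where it was 0.123% and 0.191%. The median difference of the 7 members above the floor on both arrays was -0.08, beside -0.03 over the 21850 genes above it on both.

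**Figure D1:**
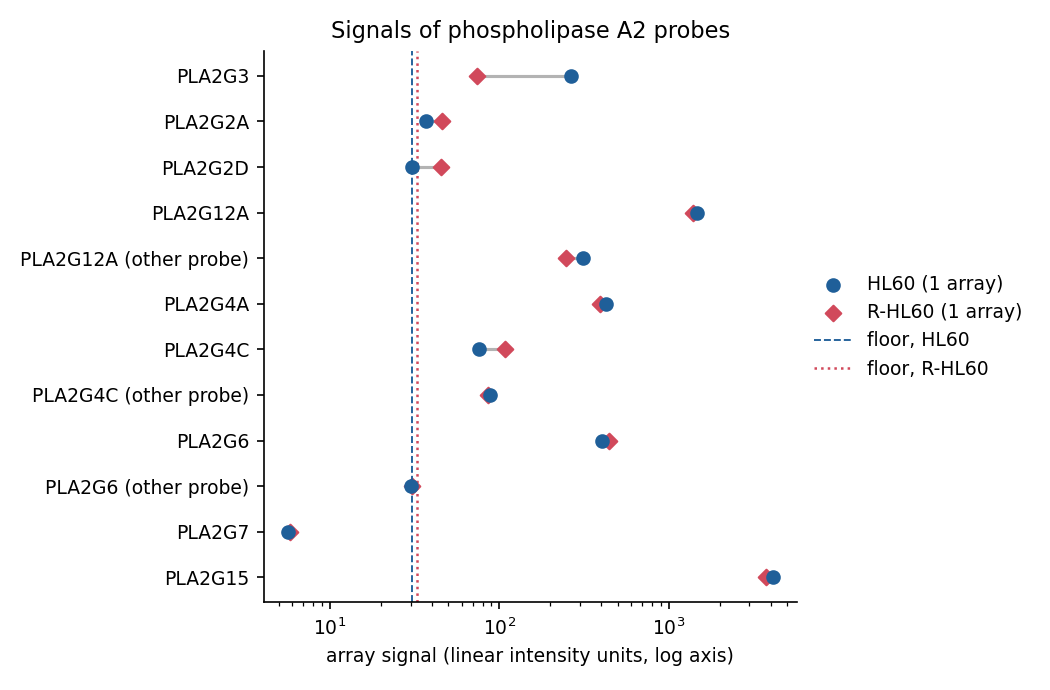
Linear array signal (log axis) of the 12 probes named for phospholipase A2 genes, with circles for HL60 and diamonds for R-HL60, 1 array each, and vertical lines at each array's floor. PLA2G3 spans the widest gap, from 267 to 74.2, whereas the PLA2G7 probe lies far below both floors.

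Among the secreted enzymes, PLA2G3 encodes the group III enzyme, which resembles the phospholipase of bee venom. Its probe read 267 in HL60 and 74.2 in R-HL60, a log2 difference of -1.86. Both signals were above the floor, but the resistant one was dim. Genes in the same brightness bin, of 10 bins of equal size, had differences with a median of -0.01, and the central 95% of them ran from -0.54 to 0.70. Different probes of the same gene at this brightness differed with an SD of 0.28, which is an error within an array pair and not between cultures. PLA2G3 lay outside the range of like-bright genes, and it ranked as number 11 from the low end among the 21850 genes above the floor on both arrays. As the gene was picked for its difference, that place and rank describe it and lend the difference no support. It had 1 probe, so no second probe of the gene was at hand.

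The other secreted members were much closer to equal, although PLA2G2D has only a bound. PLA2G12A, which encodes an atypical secreted enzyme with broad tissue expression, read 1469 and 1398 on its brighter probe, in HL60 and R-HL60 respectively (log2 difference -0.08). Its dimmer probe read 312 and 249 (-0.33). Both probes were lower in the resistant line, by 1.06-fold and 1.26-fold, and the gap between them is close to the probe-to-probe SD of 0.19 at the dimmer brightness. PLA2G2A encodes the secreted enzyme of inflammatory fluids that attacks bacterial membranes. It read 36.8 and 46.0 (0.31), just above both floors, where probes of a gene differed with an SD of 0.31. PLA2G2D, a secreted enzyme best known from lymphoid tissue, read 30.4 and 45.5 and was above the floor in R-HL60 only, which gives at least 1.47-fold higher. The difference of PLA2G2A and the bound of PLA2G2D were no larger than the differences of many equally dim genes, whose central 95% ran from -0.48 to 0.69.

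The cytosolic members differed little. PLA2G4A encodes cytosolic phospholipase A2 alpha, the enzyme that prefers arachidonic acid and moves to membranes when calcium rises. It read 429 in HL60 and 393 in R-HL60, a log2 difference of -0.13, inside the central 95% of -0.43 to 0.53 for its brightness. PLA2G4C, a cytosolic enzyme that does not need calcium, had a pair of probes that disagreed. One read 76.3 and 108 (0.49) and the other 88.9 and 85.5 (-0.06). The mean of both probes was 0.21. The probes pointed opposite ways, so PLA2G4C has no direction that both share. For PLA2G4B, a row was found only for the read-through gene JMJD7-PLA2G4B, which joins the neighbouring hydroxylase gene JMJD7 to PLA2G4B. It read 2356 and 2465 (0.06), and whether this probe also binds transcripts of PLA2G4B alone is not known here. JMJD7 itself read 738 and 709.6 (-0.07).

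The calcium-independent, platelet-activating factor and lysosomal members were also near equal or unmeasured. PLA2G6 encodes the calcium-independent enzyme of membrane remodelling that is mutated in infantile neuroaxonal dystrophy. Its brighter probe read 403 in HL60 and 443 in R-HL60 (0.13). Its dimmer probe, at 30.2 and 30.4, was below the floor on both arrays. PLA2G15, the lysosomal phospholipase, read 4136 and 3760.0 (-0.15), and genes as bright had differences with a median of -0.07. PLA2G7, the plasma platelet-activating factor hydrolase that macrophages secrete, read 5.66 and 5.79, far below the floor on both arrays, so no difference can be given. Among the members above the floor on both arrays, 4 were below 0 (PLA2G3, PLA2G15, PLA2G4A and PLA2G12A) and 3 above 0 (PLA2G6, PLA2G2A and PLA2G4C). PLA2G4C is counted by 1 of its probes, and the other lay below 0. Over all genes above the floor on both arrays, 12496 of 21850 lay below 0. That is a like share, so the count shows nothing particular to the family.

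**Figure D2:**
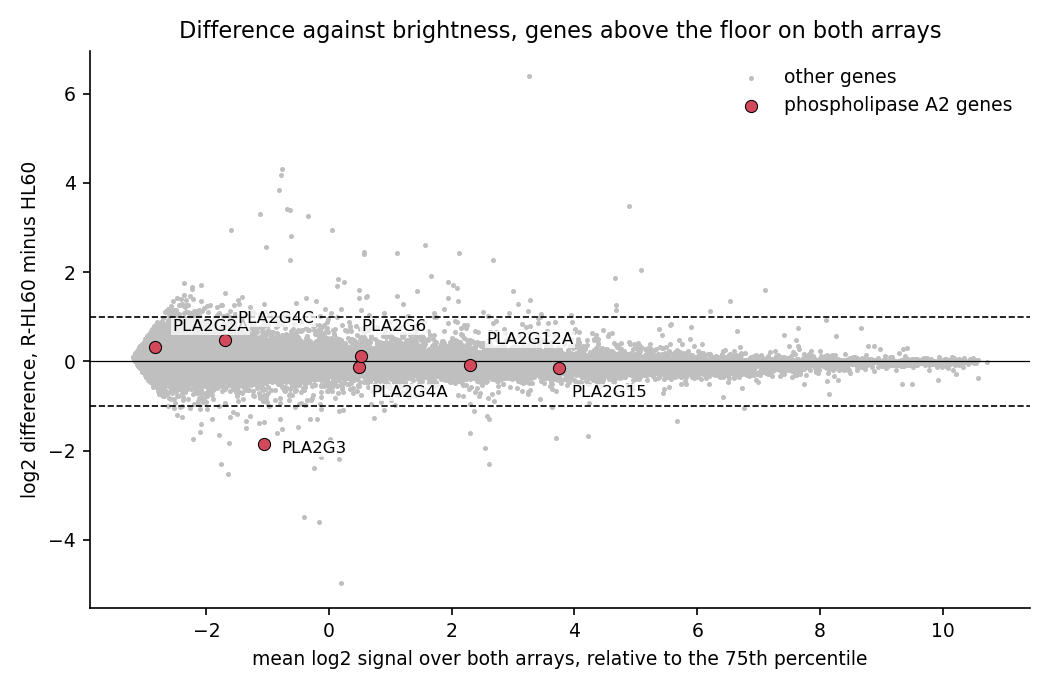
Log2 difference (R-HL60 minus HL60) against the mean log2 signal over both arrays for the 21850 genes above the floor on both (grey, 1 point per gene), with 7 phospholipase A2 genes in red and dashed lines at 2-fold. PLA2G3 at -1.86 lies below the grey band, and the other 6 lie within it.

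The stretches just upstream of transcription starts are shown for PLA2G4A, PLA2G6, PLA2G12A and PLA2G15, the members above the floor on both arrays that have a single start site in the RefSeq table of build GRCh38.p14. They are shown so that the sequence upstream of the near-equal members can be seen. RefSeq windows were matched by symbol for 7 of the 10 genes and not for PLA2G3, PLA2G2D and PLA2G4C. Each run is the 250 bases before the start, 5′ to 3′ on the gene's strand, with capitals on GGGCGG (the GC box) and CCAAT (the CCAAT box) or their reverse complements. PLA2G4A lies at chr1:186828699-186828948 on the + strand, PLA2G6 at chr22:38181831-38182080 on the - strand, PLA2G12A at chr4:109730071-109730320 on the - strand and PLA2G15 at chr16:68245123-68245372 on the + strand.
PLA2G4A: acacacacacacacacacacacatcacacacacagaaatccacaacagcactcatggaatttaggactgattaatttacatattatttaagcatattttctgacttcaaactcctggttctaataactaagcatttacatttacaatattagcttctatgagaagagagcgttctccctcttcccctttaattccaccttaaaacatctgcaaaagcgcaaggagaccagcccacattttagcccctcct
PLA2G6: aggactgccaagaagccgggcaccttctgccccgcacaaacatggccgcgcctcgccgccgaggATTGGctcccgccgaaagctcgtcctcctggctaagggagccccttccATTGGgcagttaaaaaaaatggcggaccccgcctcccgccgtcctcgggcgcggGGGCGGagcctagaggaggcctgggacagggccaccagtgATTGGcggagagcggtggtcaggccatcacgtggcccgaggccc
PLA2G12A: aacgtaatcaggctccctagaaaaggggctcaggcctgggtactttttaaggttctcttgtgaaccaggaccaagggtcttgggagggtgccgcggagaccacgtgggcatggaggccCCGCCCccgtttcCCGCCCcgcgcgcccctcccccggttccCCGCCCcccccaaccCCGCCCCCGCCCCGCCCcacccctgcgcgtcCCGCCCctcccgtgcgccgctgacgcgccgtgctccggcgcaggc
PLA2G15: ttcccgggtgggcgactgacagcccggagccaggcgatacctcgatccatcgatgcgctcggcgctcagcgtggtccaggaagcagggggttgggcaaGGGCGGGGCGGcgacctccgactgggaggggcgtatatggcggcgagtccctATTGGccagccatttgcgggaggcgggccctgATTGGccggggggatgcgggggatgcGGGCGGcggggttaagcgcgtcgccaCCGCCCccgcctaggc

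These windows were of different kinds. That of PLA2G4A opens in a run of CA repeats, was 38.8% G and C, and held 2 CG pairs and neither motif. Those of PLA2G12A (72.8% G and C, 26 CG pairs), PLA2G15 (72.0%, 29) and PLA2G6 (68.4%, 22) were rich in CG pairs. The median over all 35116 windows of that length was 58.0% and 11.0 CG pairs. PLA2G12A had 7 GC boxes and no CCAAT box, PLA2G15 had 4 and 2, and PLA2G6 had 1 and 3, with both strands searched and overlapping matches counted. Of all windows, 42.6% held GGGCGG and 32.0% held CCAAT. A match is a match of letters only, and binding was not measured.

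The neighbours of PLA2G3 on chromosome 22 were close to equal in both lines. Of the 5 protein-coding genes listed on each side in the same RefSeq table, 9 were above the floor on both arrays, and their differences ran from -0.30 (RNF185) to 0.27 (LIMK2) with a median of -0.15. The nearest on the other side, INPP5J, an inositol phosphatase gene, read 1544 and 1292 (-0.27). PIK3IP1 was below the floor on both arrays. None of the 9 measured neighbours was past 2-fold, so on these arrays the low signal of PLA2G3 was not shared by the measured genes beside it. On chromosome 1 the small secreted enzymes lie side by side. Here PLA2G2A (0.31), PLA2G5 (0.49), PLA2G2D (at least 1.47-fold higher) and PLA2G2C (0.12) were all above 0, and PLA2G2E and PLA2G2F were below the floor on both arrays. PLA2G5 read 78.4 and 111, and PLA2G2C 51.6 and 56.3. All of these signals were dim, and the resistant array's median signal was itself the higher. OTUD3, a deubiquitinase gene next to the cluster, differed by -0.04. Around PLA2G15 on chromosome 16 and around PLA2G6 further along chromosome 22, no measured neighbour was past 2-fold. The widest neighbour differences there were those of the sphingomyelinase gene SMPD3 beside PLA2G15 (-0.91) and of TMEM184B beside PLA2G6 (-0.23).

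**Figure D3:**
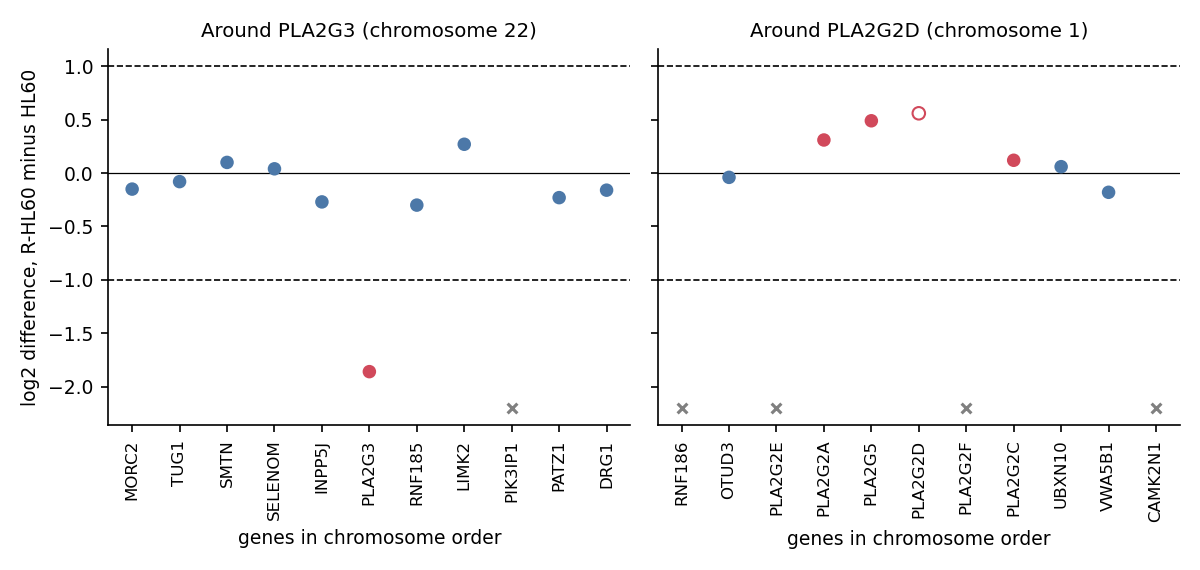
Log2 difference (R-HL60 minus HL60) of the 5 protein-coding genes on each side of PLA2G3 and of PLA2G2D in chromosome order, with phospholipase A2 genes in red, others in blue, an open circle for a bound and crosses for genes below the floor on both arrays. PLA2G3 stands alone at -1.86 among neighbours between -0.30 and 0.27.

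By the size of the difference alone, the genes most like PLA2G3 were PRUNE2 (-1.83), AEBP1 (-1.82), IGLL1 (-1.93), CARD10 (-1.75) and MAGEA2B (-1.74). These are the 5 genes with a current symbol, above the floor on both arrays, whose difference was nearest. With 2 arrays this likeness is a single number per gene.

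The list of other phospholipase A2 genes outside the 10 was near equal in its median. It also held genes without a PLA2G name, such as PAFAH, PNPLA and PLAAT genes and PRDX6. Of 25 on the list, 18 were measured and none was known to be past 2-fold, OC90 having only a bound of 0.28. Their median was 0.01 over the 17 above the floor on both arrays, where 11 lay above 0 and 6 below. Over all genes above the floor on both arrays, 9354 of 21850 lay above 0. As the list was chosen with earlier results known, this count is a description only. PLA2G1B, the pancreatic digestive enzyme, had the largest difference of these, from 37.8 to 66.0 (0.79). PLAAT4, a retinoid-inducible acyltransferase with phospholipase activity that the array names RARRES3, came next, from 235 to 341 (0.53), then PLA2G5 (0.49). The genes named PLA2G spread more widely than the median shows, at dim signals. PLA2G10 was at 0.28, with a second probe below the floor, and PLA2G2C at 0.12. PLA2G4F was at -0.33, with a dimmer probe at 0.22. PLA2G4D read 8.45 and 26.5, both under the floor, and has no measured difference. The receptor gene PLA2R1, which binds secreted phospholipases, was at 6.48 and 11.8, also under the floor on both arrays. Of the 10 genes of the receptor and regulator list, 9 were measured with a median of -0.04 and none past 2-fold. The largest differences were those of ANXA1, a calcium-dependent membrane protein known as an inhibitor of phospholipase A2 activity (19735 and 13893, -0.51), S100A10, the binding partner of another annexin (7015 and 5457, -0.37) and the ceramide kinase gene CERK (1457 and 1222, -0.26).

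Downstream of the phospholipases, genes of the leukotriene route were mostly near equal. Of 17 genes, 13 were measured, with a median of 0.03, 1 at least 2-fold higher and none 2-fold lower. That gene was ALOX5AP, which encodes the protein that presents arachidonic acid to 5-lipoxygenase. It read 1234 in HL60 and 2505 in R-HL60 (log2 difference 1.01, 2.02-fold). 5-lipoxygenase itself, ALOX5, read 227 and 239 (0.07), and a dimmer probe was at 17.0 on both arrays, below the floor. LTA4H, which completes leukotriene B4, read 17484 and 17931 (0.03), and a dimmer probe gave -0.13. LTC4S, the enzyme of the cysteinyl leukotrienes, was near the floor at 31.2 and 40.2 (0.36). GGT5, a gamma-glutamyl transferase gene, was at 0.63 and ALOX15, a lipoxygenase gene, at -0.59. Both were dim, at 88.8 and 139 and at 60.1 and 40.1. A second ALOX15 probe was below the floor on both arrays.

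Of the 15 prostanoid enzyme genes, 9 were measured, with a median of -0.02 and none past 2-fold. PTGS1, the constitutive cyclooxygenase, came close on both of its probes. The brighter read 679.6 and 1353 (0.98) and the dimmer 230.1 and 442 (0.93). PTGS1 was past 2-fold higher with quantile normalization, with loess and in the authors' normalized table, whose values were nearly those of quantile normalization. The inducible cyclooxygenase PTGS2, the neighbour of PLA2G4A on chromosome 1, was far below the floor at 2.02 and 1.63. AKR1C3, an aldo-keto reductase gene that also makes prostaglandin F, read 198 and 107 (-0.90), and PTGR2, a prostaglandin reductase gene, was at 0.32. The prostanoid list thus held differences in both directions.

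Receptors of these lipids included a pair past 2-fold. Of 16 genes, 13 were measured, 2 were at least 2-fold higher and none was known to be 2-fold lower, and the median was 0.02 over the 12 above the floor on both arrays. PTGER4, a prostaglandin E2 receptor gene, read 1540.3 and 3277 (1.08, 2.12-fold), and PTGIR, the prostacyclin receptor gene, read 165 and 349 (1.08, 2.11-fold). FPR2, a receptor gene for formyl peptides and lipoxin A4, read 538 and 829.9 (0.62). PTGFR, the prostaglandin F receptor gene, went the other way: its brightest probe read 58.6 and 30.8, above the floor in HL60 only, which gives at least 1.80-fold lower and allows a difference past 2-fold. Of 18 genes of lysophospholipid hydrolases and receptors, 9 were measured, with a median of 0.01. One of them was past 2-fold, GPR132, a lysophospholipid- and proton-responsive receptor gene that read 120.3 and 250.2 (1.05, 2.07-fold). The lysophospholipase gene PNPLA6 was at 0.35 and the glycerophosphocholine phosphodiesterase gene GPCPD1 at 0.26.

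Genes that attach fatty acids to lysophospholipids, or activate fatty acids for this, were near equal on balance. Their median was -0.05 over the 16 of 18 measured, 12 of them below 0 and none past 2-fold. The median was 0.01 with quantile normalization, with loess and in the authors' normalized table, so it has no settled direction. Over all genes above the floor on both arrays, 12496 of 21850 lay below 0. LPCAT2, which also makes platelet-activating factor, read 2189 and 2188 (-0.01), and a second probe gave 0.07. LPCAT3, the arachidonate-handling acyltransferase, was at -0.02 and ACSL4, which activates arachidonic acid with coenzyme A, at 0.02. The largest differences were those of AGPAT4 (-0.68, with further probes at -0.65 and -0.25), the acyl-CoA synthetase gene ACSL1 (0.64) and AGPAT5 (-0.37). Of 28 other phospholipase genes, 20 were measured, with a median of 0.09 and none known to be past 2-fold. PLD2, above the floor in HL60 only, has a bound of -0.50. The list was led by PLB1 (0.67), PLCB2 (0.66), a phospholipase C gene of blood cells, and PLD1 (0.57, with a dimmer probe at 0.25). PLB1 encodes an intestinal phospholipase B, and its further probes were below the floor on both arrays.

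**Figure D4:**
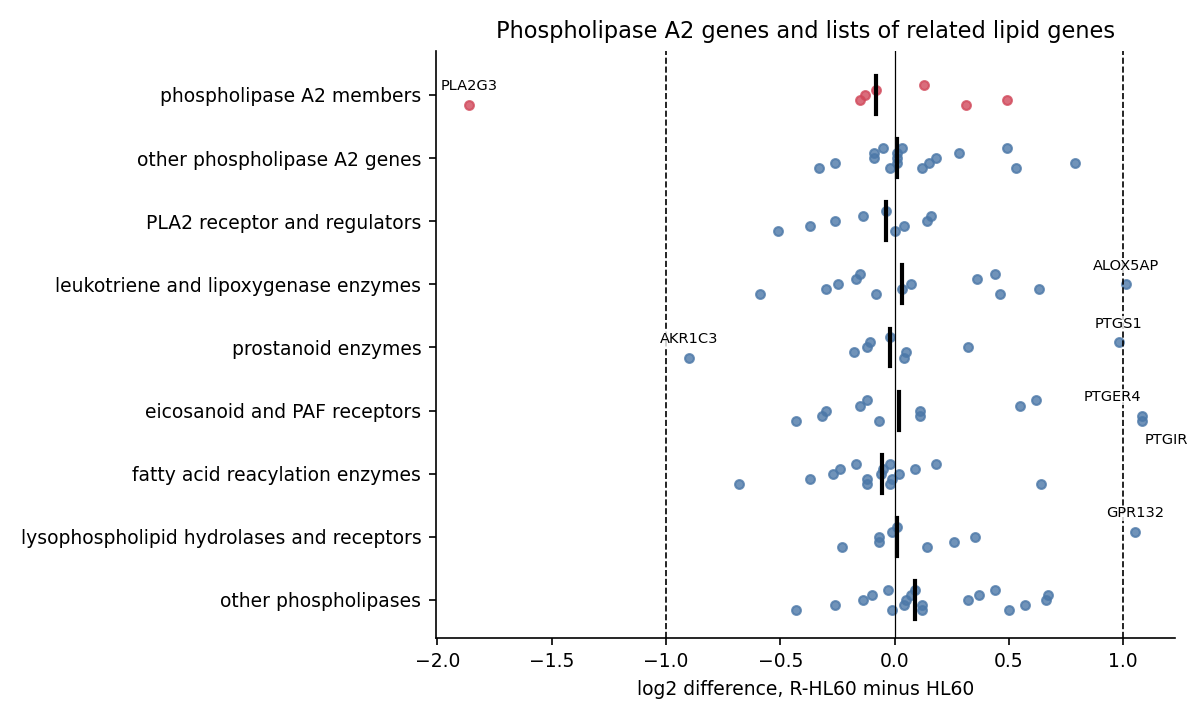
Log2 difference (R-HL60 minus HL60) of each gene above the floor on both arrays, 1 point per gene, for the phospholipase A2 members (red) and 8 lists of related lipid genes (blue), with black bars at medians and dashed lines at 2-fold. PLA2G3 is alone past 2-fold on the low side, and ALOX5AP, PTGER4, PTGIR and GPR132 lie just past it on the high side.

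Over these 8 lists together, 107 of 147 genes were measured, 4 were at least 2-fold higher (3.74%, beside 0.786% of all genes) and 0 were known to be 2-fold lower (beside 0.297%). The 4 rested on 1 probe each and lay close to the threshold. With quantile normalization, with loess and in the authors' normalized table the lists held 5, PTGS1 being the addition (4.67%). The share of all genes was then 0.697% with quantile normalization and in the authors' table, and 0.748% with loess. The authors' table gave the same counts as quantile normalization and is no separate check of it. As the lists were chosen with earlier results of these data known, these shares are a description only. With each array centred on its median in place of the 75th percentile, none of the 4 reached 2-fold, and with an offset of 50 units added to every signal only PTGER4 did. Over all genes the median centring gave 129 higher and 91 lower, against 185 and 70. PLA2G3 was 3.86-fold lower with the median centring.

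Markers of the labelled myeloid type were present: all 8 myeloid genes listed were above the floor on both arrays, the summed signal being 814776 in HL60 and 725961 in R-HL60, with ELANE past 2-fold lower. Of 5 fibroblast genes, 4 were below the floor on both arrays and DCN was above it in R-HL60 only. Of 5 epithelial genes, EPCAM and CDH1 were below the floor on both arrays and 3 keratin genes were above it. All 5 lymphoid genes were above it on both arrays, with a summed signal of 6732 and 9297. Most of this came from CD3D (3923 and 6201). MS4A1 was barely above the floor (32.4 and 34.9). Of the 5, 4 lay above 0 and 1 below, CD3E at -0.15. Of the 4 erythroid genes found, 3 were above it on both arrays. Of 6 eosinophil and mast cell genes, 5 were measured, and CLC and PRG2 were past 2-fold lower. The summed signal of that list was 11669 in HL60 and 3258 in R-HL60, and EPX was below the floor on both arrays. Most of that sum came from PRG2 (9632 and 3063) and CLC (1852 and 60.1). CPA3 (-0.29) and HDC (-0.27) differed little, and TPSAB1, above the floor in HL60 only, has a bound of -0.07. CLC and PRG2 were lower on the same array as PLA2G3, and their part in its difference was not tested.

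**Figure D5:**
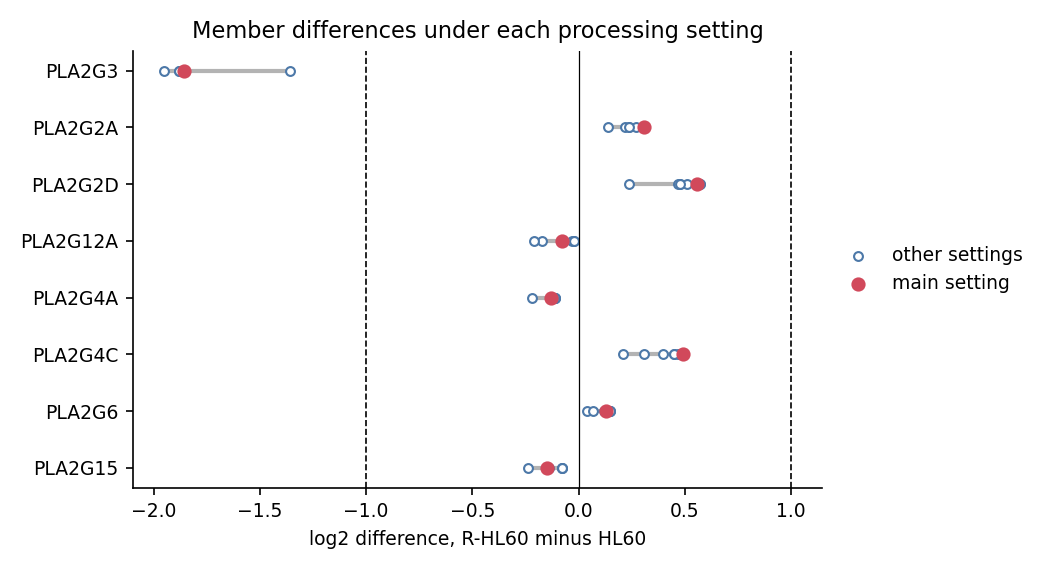
Log2 difference (R-HL60 minus HL60) of the 8 measured members in the main setting (red) and under the other scalings, floors, offset and probe summary (open circles), with dashed lines at 2-fold. PLA2G3 stayed between -1.95 and -1.36, and no other member was known to reach 2-fold in any of them.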

How the data were processed

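HL60 and R-HL60 were each represented by RNA on 1 Agilent one-colour array. Each deposited file pairs gene names with linear intensities, 1 for every probe, and Agilent Feature Extraction 10.7.3.1 was used per the submitters' processing notes. The scanner column and the handling of background are not stated there. A table of normalized intensities by the authors, of unstated method, was an alternative. Once sorted, its columns were nearly identical (median gap 0%, largest gap 1.17%), as quantile normalization leaves them. It therefore adds little to the quantile setting.

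Signals were taken to log2 and set relative to the 75th percentile of 58201 probes. The floor was the array median. A gene above the floor on 1 array has a bound against the higher of the floor and its own value. The probe with the highest mean log2 signal stood for a gene. Of 43317 names, 21081 were current symbols of the RefSeq table of GRCh38.p14. A further 1526 older symbols were updated, and 41 older symbols of genes with rows of their own were kept as named, as were 57 older symbols of several genes and 20612 unmatched names. With 1 array per line no test was made, and the number of arrays limits the precision.

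The members and lists were chosen with earlier results of these data known. Named were all members, the 3 largest differences of each lipid list (both signals above the floor), 10 genes of arachidonate handling whatever their value, and the 5 genes nearest to PLA2G3. Other genes, namely markers, neighbours and relatives of the family, were chosen for mention with their values in view. Other settings were different scalings, an offset of 50 units, other floors, the mean of probes and thresholds of 1.5-fold and 3-fold. On simulated data for R-HL60 against HL60 with 43311 genes, 98 of 100 genes changed 2.5-fold and 100 of 100 changed 4.0-fold were recovered, and 2 of 23127 unchanged genes passed 2-fold. The changed genes were drawn only from the brighter genes in HL60, above the floor on both arrays, so recovery of dim genes was not checked. The simulation held probe noise only, with no spread between cultures or arrays, so it checks the steps and gives no error rate for the 2-fold calls. Python 3.11.15, numpy 2.4.6, pandas 2.3.3, statsmodels 0.14.6 and matplotlib 3.10.9 were used.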

Additional observations from a re-analysis of the deposited data

How the results depend on the processing

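PLA2G3 was past 2-fold lower, and no other member was known to be past 2-fold, in all 11 alternatives tried. Many of these could not move PLA2G3. It has 1 probe, above each floor, so the other floors and the mean of probes repeated its main 3.62-fold. The thresholds of 1.5-fold and 3-fold used that same value, and the authors' table repeated quantile normalization (3.69-fold in both). The fold of PLA2G3 moved most with an offset of 50 units, which shrinks dim signals (2.57-fold, log2 difference -1.36). The offset gave 0.24 for PLA2G2D. The mean of all probes gave 0.21 for PLA2G4C. The other member differences moved by less than the probe-to-probe SD of 0.19. Every measured member kept its sign in each setting that gave a value, and PLA2G2A and PLA2G2D gave none with the floor at percentile 60. The member median ran from -0.17 to 0.02, its sign turning with the floor at percentile 40 and without a floor. Of the lipid lists, 0 genes were past 2-fold higher with the median shift, 1 with the offset, 8 without a floor, 11 at 1.5-fold and 0 at 3-fold. These were 0%, 0.935%, 5.44%, 10.3% and 0% of the lists, beside 0.548%, 0.280%, 5.87%, 3.53% and 0.191% of all genes. The higher share of the lists was thus not seen with the median shift, without a floor or at 3-fold. With the floor at percentile 40, 1 of 119 list genes was past 2-fold lower, beside 109 of 28269 genes. Without a floor 2 of 147 were, beside 1303 of 43311. At 1.5-fold 4 of 107 were lower, beside 324 of 23545. No paired analysis was possible because each line had 1 array. Signals near the floor, such as those of PLA2G2A and PLA2G2D, limit what can be said of these genes.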
